A study of Vitis vinifera with 156 samples.

Results

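The time course under fluctuating temperature comprises 36 libraries, which are 12 of the 52 groups of 3 libraries in a study of cold acclimation in dormant grapevine buds (Vitis vinifera, cultivar Cabernet Sauvignon). Its libraries were chosen by label, as all those whose second temperature phase was 7 °C with a daily swing of 5 °C to either side, between a minimum of 2 °C and a maximum of 12 °C. All buds were collected in endodormancy and held on cuttings in growth chambers. Until day 26 they had been kept at a constant 2, 7 or 11 °C (phase I), and after the move to the common regime they were sampled at days 34, 41, 55 and 69. This gave 3 arms of 12 libraries, named here by their phase I temperature, and 12 groups of 3 libraries. Each library is labelled as a replicate, and nothing in the labels says whether replicates came from separate vines or cuttings, so p-values measure only the spread between these libraries. A bud is a mixture of tissues, and in such bulk samples fewer cells of a type and less RNA per cell cannot be told apart. The question was which transcripts changed with day in the same way in the 3 arms, and whether the change with day differed between arms.

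An endodormant bud is held back from growth by signals within the bud itself, and long exposure to chilling lifts that block. Over the same weeks the bud acclimates, gaining tolerance to freezing through changes in sugars, protective proteins and membranes. Time in the cold and temperature therefore act together on a dormant bud, and in one regime the arms no longer differ in temperature. All arms were moved at day 26, so later days are also longer times since the move. Time in the cold and a lasting response to the move cannot be told apart in a trend over these days. Messenger RNA was read near its 3′ end, and longer transcripts do not gain counts by their length. The deposited table gives counts without gene identifiers. Genes are therefore cited by their line number in the table, counted from 1 after the header, no function can be attached to them, and the tissue could not be checked against marker genes. For the same reason no gene family, pathway or sequence is described.

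Total counts ran from 36026 to 7138863 per library, with a median of 2630739.5, and 3 libraries lay under 1000000. These were the arm after 7 °C at day 34, replicate 2 (36026 counts), the arm after 2 °C at day 55, replicate 1 (75153), and the arm after 11 °C at day 34, replicate 3 (809387). In the shallowest library 3 counts correspond to 83.3 counts per 1000000 counts of the library (CPM), against 0.42 to 3.71 CPM in the 34 libraries other than it and the arm after 2 °C at day 55, replicate 1. Median depth was 2563244 at day 34, 2952667 at day 41, 3410914 at day 55 and 2252040 at day 69. The 10 highest genes took between 25.4% and 48.6% of the counts of a library. All 36 libraries belong to the Second of the 2 library sets named in the labels. The library names carry a letter and number that read as a plate position, and in each arm days 34 and 41 share a column while days 55 and 69 fall, with 1 exception, in the next one, so plate column and the later days cannot be told apart within an arm.

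Day was the main source of the third axis of variation among the buds, not of the first. In a principal component analysis of the 33 libraries with at least 1000000 counts, the first component held 43.3% of the variance, and 72.1% of that component lay between replicates of the same arm and day while 2.90% lay between days. The third component held 6.99% of the variance, with 51.6% of it between days, 19.9% between arms and 8.36% in the combination of arm and day. On this component, signed so that later days score higher, the libraries averaged -17.2 ± 11.7 (SD, n = 7) at day 34, -10.3 ± 18.8 (n = 9) at day 41, 1.53 ± 12.3 (n = 8) at day 55 and 22.3 ± 13.8 (n = 9) at day 69. The lowest library of day 69 scored 6.11 and the highest of day 34 scored -4.69, so these days did not overlap. Days 41 and 55 overlapped, from -40.7 to 10.2 and from -15.0 to 22.8.

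**Figure D1:**
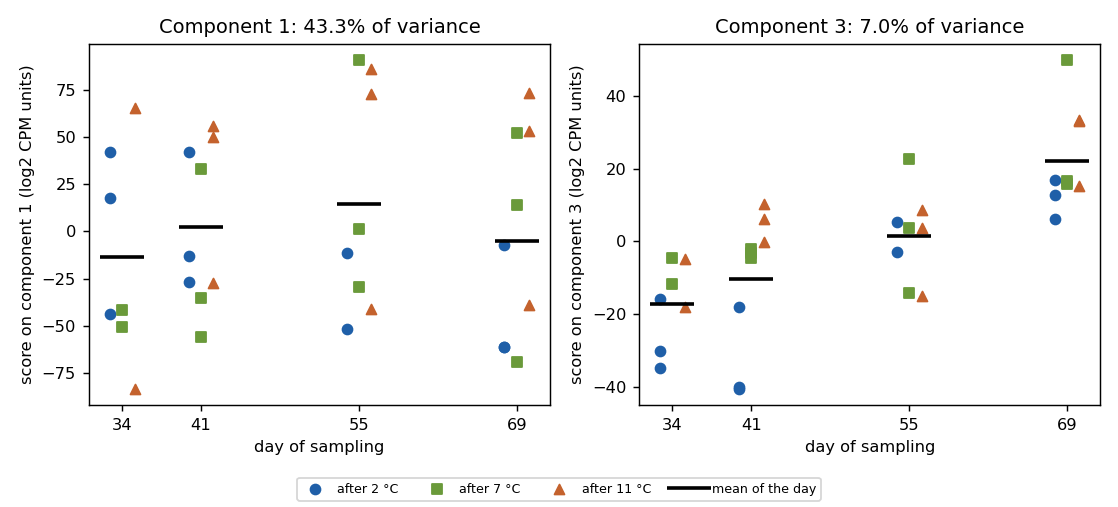
Scores of the 33 deeper libraries on principal components 1 and 3 (log2 CPM units) by day of sampling, coloured by the temperature before day 26, with the mean of each day as a bar. Replicates of the same arm and day spread widely on component 1, while on component 3 the day means rise from -17.2 at day 34 to 22.3 at day 69.

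A straight line over day, with the arm as a factor, was fitted to each gene in edgeR's quasi-likelihood test. Of 10727 genes tested, 272 were called at an adjusted p under 0.05 (2.54%), 84 of them rising (0.783%) and 188 falling (1.75%). The log2 change from day 34 to day 69 had a median of 0.84 in the rising genes (range 0.51 to 2.29) and -1.14 in the falling genes (range -2.82 to -0.55), against 0.03 over all genes tested. The median standard error was 0.21 and 0.26 in these groups. At least a 2-fold change was estimated for 28 rising and 130 falling genes. Falling genes outnumbered rising ones in each tool, but the balance moved with the tool, with 255 rising and 360 falling genes in DESeq2. The number called moved with the libraries, to 529 in those of at least 1000000 counts, 66 without the arm after 2 °C and 32 (4 rising and 28 falling) without replicate 3. Genes with a mean of at least 10 CPM were called in 2.98% of cases and those below in 1.86%.

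The called genes mostly had slopes of 1 sign across the arms. In a fit with 1 slope per arm, all 84 rising genes and 185 of 188 falling genes had slopes of the same sign in the arms after 2, 7 and 11 °C. Since these genes were chosen on the mean of the arms, this is a description, and the same held for 3166 of all 10727 genes. The median log2 change of the rising genes was 0.86 after 2 °C, 0.82 after 7 °C and 0.69 after 11 °C. For the falling genes these medians were -1.28, -0.99 and -1.12. As a level, the 84 rising genes together made up 2807 ± 610 CPM (SD, n = 9) at day 34, 3029.8 ± 675.1 at day 41, 4209 ± 987 at day 55 and 5061 ± 970.4 at day 69. The 188 falling genes together made up 76919.7 ± 21778 CPM at day 34, 81942 ± 24826 at day 41, 56432 ± 12225 at day 55 and 38944 ± 7972 at day 69.

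Most of that falling sum came, at each day, from 1 gene, which is described without a line number and was picked after its values were seen. It averaged 46824 ± 18658 CPM at day 34 (lowest 28127, median 44941, highest 77849) and 54226 ± 15891 at day 41. It then stood at 37971 ± 13349 CPM at day 55 and 26012 ± 7318 at day 69 (lowest 11564, median 26730.4, highest 35261). Its log2 change over 35 days was -1.04 ± 0.25 (SE, adjusted p 0.0142), and its libraries of days 34 and 69 overlapped. The other 187 falling genes together went from 30095 ± 8778 CPM at day 34 to 12932 ± 3811 at day 69.

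The rule for named genes took the 2 largest rises and the 2 largest falls among called genes with at least 10 CPM. It asked that the slope, and the difference between the means of days 69 and 34, have the same sign in every arm. A call in each arm was not asked for. Under this rule the largest rise was that of the gene at line 12652. Over the 9 libraries of a day its lowest, median and highest values were 15.3, 24.4 and 35.6 CPM at day 34, 10.8, 36.3 and 62.3 at day 41, 13.3, 39.7 and 77.4 at day 55, and 21.6, 109.9 and 537.1 at day 69. At day 69 the libraries after 2 °C held 63.01, 23.98 and 21.6 CPM, those after 7 °C 290.5, 59.8 and 141.8, and those after 11 °C 537.1, 273.5 and 109.9. The high values of day 69 were thus those of the arms after 7 and 11 °C, and 2 of the 3 libraries after 2 °C lay within the range of day 34. The log2 change over 35 days was 2.29 ± 0.37 (SE, adjusted p 0.000161), with slopes of 0.74, 2.74 and 3.08 in the arms after 2, 7 and 11 °C. In the arm after 2 °C fitted alone the change was 0.74 ± 0.47 (SE, adjusted p 0.386), and this gene was called in no arm fitted alone. The test of unequal slopes gave it an adjusted p of 0.579 (0.0214 unadjusted).

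The gene at line 2793 also rose. Its lowest, median and highest values were 5.85, 8.65 and 83.3 CPM at day 34 and 9.77, 57.7 and 150.6 CPM at day 69. The value of 83.3 CPM rests on 3 counts in the shallowest library, and the next highest of day 34 was 25.2. Days 41 and 55 had medians of 10.7 and 26.6 CPM. At day 69 the libraries after 2 °C held 26.1, 9.77 and 10.8 CPM, those after 7 °C 150.6, 15.7 and 57.7, and those after 11 °C 99.1, 65.2 and 88.5. The log2 change was 1.87 ± 0.35 (adjusted p 0.00120), with slopes of 0.67, 2.83 and 2.08 after 2, 7 and 11 °C. The test of unequal slopes gave an adjusted p of 0.587 (0.0414 unadjusted). In the arm after 2 °C fitted alone the change was 0.65 ± 0.46 (SE, adjusted p 0.437), and this gene too was called in no arm fitted alone. The days overlapped in this gene too, and the arm after 2 °C was again the lowest at day 69 by its mean of 15.6 ± 9.16 CPM (n = 3).

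Under the same rule the largest fall was that of the gene at line 38662, an abundant transcript. Its lowest, median and highest values were 1138, 2837 and 8098 CPM at day 34, 1139.8, 1869 and 8392 at day 41, 360.2, 1124 and 2726 at day 55, and 325, 537 and 1003 at day 69. No library of day 69 reached the lowest of day 34. After 2 °C it went from 6687 ± 1875 CPM (n = 3) at day 34 to 601 ± 99.7 at day 69, after 7 °C from 1864 ± 638 to 691 ± 329, and after 11 °C from 2845 ± 969 to 346 ± 32.01. The log2 change was -2.76 ± 0.36 (adjusted p 6.42e-06), with slopes of -3.67, -1.46 and -3.21 in the arms after 2, 7 and 11 °C. The test of unequal slopes gave an adjusted p of 0.569 (0.0138 unadjusted).

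The gene at line 3339 fell from a lower level. Its lowest, median and highest values were 0, 15.2 and 59.4 CPM at day 34, 6.502, 11.9 and 46.1 at day 41, 3.50, 6.65 and 13.3 at day 55, and 1.21, 4.07 and 12.1 at day 69. The value of 0 is that of the shallowest library, where 3 counts correspond to 83.3 CPM, and the lowest of the other libraries of day 34 was 8.65. At day 69, 2 libraries held 3 counts or fewer. The log2 change was -2.51 ± 0.28 (adjusted p 2.81e-07), with slopes of -2.56, -3.09 and -1.96 in the arms after 2, 7 and 11 °C.

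**Figure D2:**
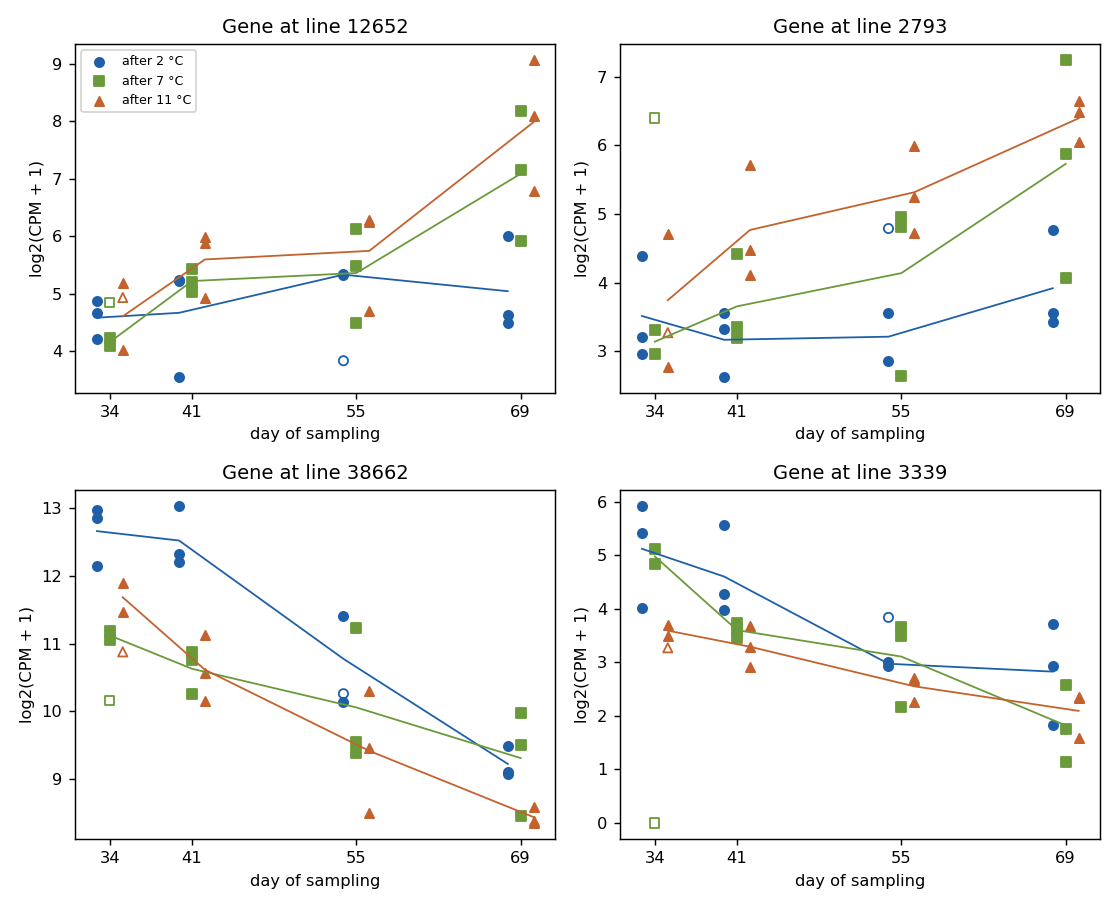
Level of the 4 named genes in each of the 36 libraries, as log2(CPM + 1), by day of sampling and coloured by the temperature before day 26. Open symbols are the 3 libraries under 1000000 counts and lines join the means of the deeper libraries. In the upper panels the lines end higher at day 69 than at day 34, least so and unevenly after 2 °C. In the lower panels they descend in all arms.

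The change with day was not placed in any single interval by edgeR, which called no gene between neighbouring days. DESeq2 called some in the later intervals. With day as a factor in place of a line, 96 of 11170 genes differed among days (0.859%), and 90 of these were also called in the linear trend. Of the 96 genes, 46 had their highest fitted level at day 34 and their lowest at day 69, 25 were highest at day 41 and lowest at day 69, and 11 were lowest at day 34 and highest at day 69. In the 84 rising genes the median log2 difference from day 34 was 0.13 at day 41, 0.53 at day 55 and 0.82 at day 69. In the 188 falling genes it was -0.10, -0.62 and -1.15. By these medians 16.2% of the rise and 8.35% of the fall was present at day 41, and 64.1% and 53.9% at day 55. These genes were chosen by a straight-line fit in the same libraries, which favours an even build-up. The shares are therefore a description and do not time the change.

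None of the steps between neighbouring days was called in any gene by edgeR (0% in each). At an unadjusted p under 0.05 there were 341 of 11170 genes from day 34 to 41, 719 from day 41 to 55 and 824 from day 55 to 69. DESeq2 called 0, 26 and 17 genes in these steps. Genes that peaked or dipped midway were not called either, since the mean of days 41 and 55 differed from that of days 34 and 69 in 0 genes (743 at an unadjusted p under 0.05, 12 in DESeq2). The median standard error of a step over all genes tested was 0.31, 0.30 and 0.30 on the log2 scale. From day 34 to 41 the median steps in the trend genes, 0.13 and -0.10, were smaller in size than this error. The errors of the trend genes alone are not given for these steps.

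The number of calls depended on the last sampling day. Day 69 against day 34, a contrast chosen after the data had been seen, called 1.42% of 11170 genes, 41 higher (0.367%) and 118 lower (1.06%) at day 69. Day 69 against the mean of the 3 earlier days, also chosen so, called 1.41%, 46 higher (0.412%) and the rest lower (0.994%). Day 55 against day 34 called 4 genes (0.0358%), 2 higher (0.0179%) and 2 lower (0.0179%), with 948 genes at an unadjusted p under 0.05. When day 69 was left out of the linear trend 1 gene was called (915 at an unadjusted p under 0.05), whereas 1.45% of genes were called without day 34. Leaving out day 41 or day 55 was not run, and without day 69 the days span less time than without day 34.

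Whether the change with day differed between arms was tested with a slope for each arm. The 3 slopes were unequal in 1 of 11734 genes (0.00852%), while 992 genes (8.45%) had an unadjusted p under 0.05 and DESeq2 called 14. Of the 272 genes of the shared trend, all were tested for unequal slopes, 42 had an unadjusted p under 0.05 and 1 was called. These 42 are a larger share than the 8.45% of all genes tested. Between pairs of arms, the slopes after 2 and 11 °C differed in 1 gene (1167 or 9.95% at an unadjusted p under 0.05, 10 in DESeq2). The slopes after 2 and 7 °C differed in 0 genes (1535 or 13.1% at an unadjusted p under 0.05, 18 in DESeq2). Those after 7 and 11 °C differed in 0 (220 or 1.87% at an unadjusted p under 0.05, 0 in DESeq2). Without assuming straight lines, the pattern over the 4 days was unequal in 0 of 12112 genes (464 at an unadjusted p under 0.05, 66 in DESeq2).

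These counts do not show that the arms changed alike. The median standard error of a difference between 2 slopes was 0.68 after 2 against 11 °C, 0.71 after 2 against 7 °C and 0.71 after 7 against 11 °C, and still 0.57 to 0.59 in genes of at least 10 CPM. The median change of the falling genes, -1.14, is about 2 of the errors in genes of at least 10 CPM. Those errors are medians over all such genes tested, not over the falling genes. The balance of the unadjusted differences was uneven between 2 and 7 °C, with 364 genes of a more positive slope after 2 °C and 1171 of a more negative one. It was more even between 2 and 11 °C, at 488 and 679.

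The gene with unequal slopes, given without a line number, fell in the arm after 2 °C. There its values were 31.99, 48.7 and 71.7 CPM at day 34, 25.1, 48.8 and 22.4 at day 41, 26.6, 15.7 and 17.9 at day 55, and 5.12, 3.11 and 5.82 at day 69. The value of 26.6 CPM rests on 2 counts in a library where 3 counts correspond to 39.9 CPM. All libraries of day 69 lay below the others of days 34, 41 and 55. After 11 °C it stood at 14.6, 36.6 and 12.4 CPM at day 34 and 15.8, 21.9 and 21.4 at day 69. After 7 °C it stood at 15.1, 0 and 16.4 CPM at day 34, the 0 again in the shallowest library, and at 7.83, 7.08 and 14.8 at day 69. The log2 change in each arm's own fit was -3.15 ± 0.37 after 2 °C (adjusted p 0.000403), -0.48 ± 0.42 after 7 °C (adjusted p 0.915) and -0.27 ± 0.34 after 11 °C (adjusted p 0.927). The slopes after 2 and 11 °C differed by -2.91 ± 0.50 (adjusted p 0.0140), and the test of all 3 slopes gave an adjusted p of 0.0253. The test of all 3 slopes called no gene with RLE scaling, without the filter on low counts or without any 1 replicate number.

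**Figure D3:**
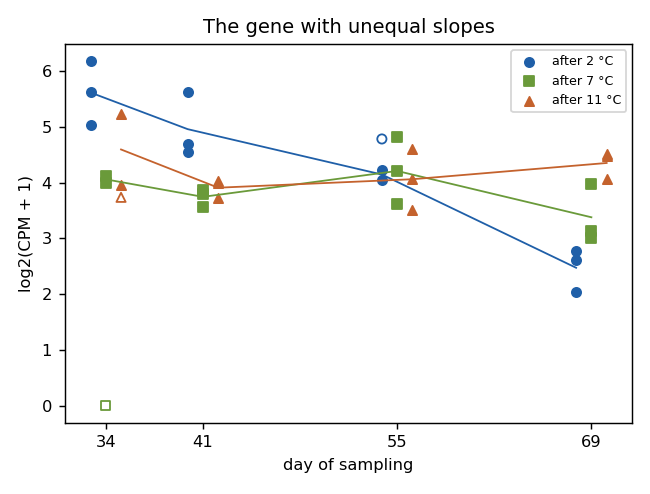
Level of the gene whose slopes differed between arms, as log2(CPM + 1), in each of the 36 libraries by day of sampling, coloured by the temperature before day 26. Open symbols are the 3 libraries under 1000000 counts, lines join the means of the deeper libraries, and the libraries after 2 °C descend from 31.99 to 71.7 CPM at day 34 to 3.11 to 5.82 CPM at day 69.

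Fitted alone, the arms gave different numbers of calls. In the 12 libraries after 2 °C, 194 of 9799 genes were called (1.98%), 48 rising (0.49%) and 146 falling (1.49%). DESeq2 called 743 in this arm. After 7 °C none of 9911 was called (974 at an unadjusted p under 0.05, 13 in DESeq2), and after 11 °C 3 of 10673 were (0.0281%), 1 rising (0.00937%) and 2 falling (0.0187%). DESeq2 called 74 after 11 °C, and edgeR called 0 there with the replicate block and without any 1 replicate number. Unequal numbers of calls are no test of a difference between arms, for which the values are those above. The count after 2 °C depended on the libraries, with 0 genes without replicate 3, 13 without replicate 2 and 1145 without replicate 1.

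The genes called after 2 °C were read in the other arms, whose libraries do not overlap with it. Of the 146 falling genes, 140 were tested after 11 °C, where 117 (83.6%) also had a negative slope with a median log2 change of -0.60, and 43 had an unadjusted p under 0.05 in that direction and 0 in the other. After 7 °C 86 of 131 (65.6%) had a negative slope, with a median of -0.31, and 28 had an unadjusted p under 0.05 in that direction and 0 in the other. In their own arm the medians were -2.08 and -2.06 over the same genes. Of all genes tested in both arms, 54.6% had a positive slope after 7 °C and 48.8% after 11 °C. Among all these genes, 327 of 9464 had a negative slope with an unadjusted p under 0.05 after 7 °C. After 11 °C there were 329 of 9565. Of the 48 rising genes, 29 of 47 had a positive slope after 7 °C (median 0.23) and 21 of 46 after 11 °C (median -0.04). These shares of positive slopes lay near those of all genes. At an unadjusted p under 0.05, 3 of the 47 were positive after 7 °C and 0 negative. After 11 °C 5 of the 46 were positive and 1 negative. Among all genes tested in both arms, 584 of 9464 were positive at that threshold after 7 °C and 194 of 9565 after 11 °C.

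The first principal component is given by arm beside these counts, and its differences between arms were not tested. Its mean went from 5.30 at day 34 to -43.3 at day 69 after 2 °C, from -46.1 to -1.02 after 7 °C, and from -8.89 to 29.2 after 11 °C, while the libraries of 1 group, after 11 °C at day 34, lay as far apart as -83.3 and 65.5. When the main axis of variation between replicates was added as a covariate in the 33 deeper libraries, 1417 of 12200 genes had unequal slopes and 1202 of 11518 a shared trend. This covariate was added with results in view and is computed from the counts it then models, so it can raise the number of calls. It held 50.7% of the variance within groups.

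The genes of the shared trend were then read in buds that had stayed at a constant temperature, in libraries that do not overlap with the 36. At constant 2, 7 and 11 °C between days 34 and 69 (36 libraries of the First set), edgeR called 463 of 10812 genes (4.28%), 232 rising (2.15%) and 231 falling (2.14%). Of the 84 genes that rose under fluctuating temperature, 83 were tested there and 79 (95.2%) had a positive slope, with a median log2 change of 0.54. Of the 188 that fell, 184 were tested and 176 (95.7%) had a negative slope, with a median of -0.71. Among all genes tested in both, 48.7% had a positive slope. Called in both were 67 genes, 16 rising and 51 falling, which is 25.1% of the fluctuating list and 14.9% of the constant list, and none was called in opposite directions.

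The medians were smaller at constant temperature than the 0.84 and -1.14 under fluctuation, but the genes had been chosen on the fluctuating libraries, which favours larger values there. The test of the difference in slope between the regimes called 0 of 12016 genes (1058 at an unadjusted p under 0.05, 6 in DESeq2), with a median standard error of 0.44. Regime and library set cannot be told apart in the levels of these arms. Constant 4 °C lies in the same set as the fluctuating arms, and its 12 libraries of days 34 to 69 gave 1 called gene of 9243 (0.0108%; 964 at an unadjusted p under 0.05, 193 in DESeq2). There, 68 of 75 rising genes (90.7%) had a positive slope and 91.3% of the falling genes tested a negative one, with medians of 0.50 and -0.74, against 52.01% positive among all genes. The slopes of the fluctuating arms and of constant 4 °C differed in 0 of 11943 genes (666 at an unadjusted p under 0.05, 1 in DESeq2), with a median standard error of 0.59. At constant 22 °C slopes were read to day 55 in 7 libraries of at least 1000000 counts, 1 of them at day 55. There 39.3% of the rising genes had a positive slope and 46.8% of the falling genes a negative one. Among all genes 49.2% were positive. The medians over 35 days were -0.29 and 0.13, and this difference from the colder arms was not tested. Before day 34 the falling genes stood higher at 22 °C as well. Relative to the mean of days 34 to 55, their median was 0.96 at day 7 and 0.37 at day 20. It was -0.10 at day 34 and 0.23 at day 41. The median of the rising genes was -0.18, 0.16, 0.12 and -0.29 on these days. At 22 °C days 7 to 20 lie in the First set and days 34 to 55 in the Second, and this fall was not tested.

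**Figure D4:**
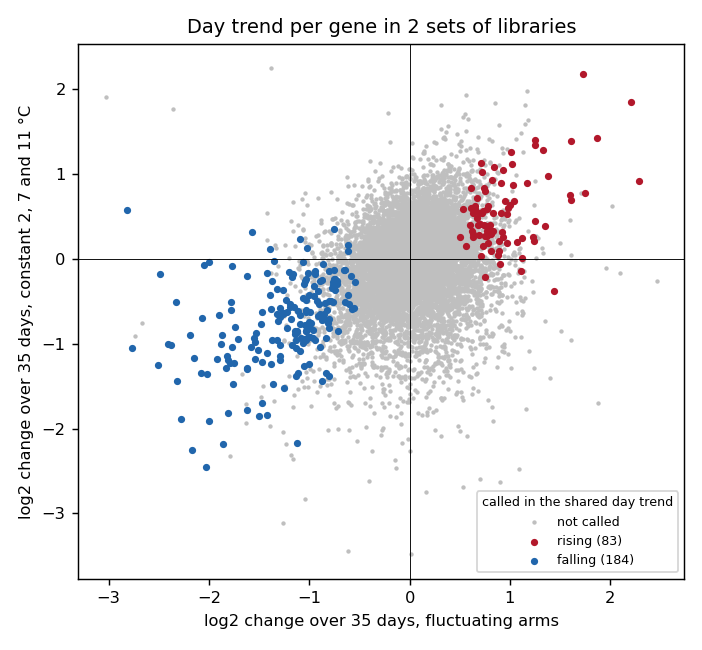
Log2 change over 35 days of each gene in the fluctuating arms (horizontal) and at constant 2, 7 and 11 °C (vertical), with the genes called in the shared day trend coloured by direction. Most coloured genes lie in the quadrants of equal sign, 79 of 83 rising and 176 of 184 falling.

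All 4 named genes had the same direction at constant 2, 7 and 11 °C as under fluctuation. The gene at line 2793 rose in the joint fit of these arms, by 1.43 ± 0.43 on the log2 scale (adjusted p 0.0459). Its level went from 3.94 ± 1.72 CPM (n = 3) at day 34 to 58.4 ± 43.6 at day 69 at constant 11 °C, from 7.26 ± 2.06 to 12.6 ± 5.85 at constant 7 °C and from 6.92 ± 2.59 to 7.80 ± 4.27 at constant 2 °C. The gene at line 38662 fell there by 1.05 (SE 0.27, adjusted p 0.0186), from 5139 ± 1754 to 3360.0 ± 221.9 CPM at constant 2 °C and from 1266 ± 334 to 599.8 ± 213.5 at constant 11 °C. The genes at lines 12652 and 3339 were not called there, at 0.92 ± 0.44 (adjusted p 0.221) and -1.25 ± 0.40 (adjusted p 0.0625). A difference in slope from constant 2, 7 and 11 °C was called for none of the 4, the smallest adjusted p being 0.214 at line 38662.

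In the weeks before the move, most of the trend genes had a slope of the same sign at constant temperature, a share that was not tested. At constant 2, 7 and 11 °C between days 7 and 26, 979 of 10590 genes were called (9.24%), 490 rising (4.63%) and 489 falling (4.62%). Of the genes that later rose under fluctuation, 57 of 76 had a positive slope in these early weeks, and of those that later fell, 72.2% of the 187 tested had a negative one, where 54.9% of all genes were positive. Called in both periods were 69 genes, 64 in the same direction (10 rising and 54 falling) and 5 in opposite ones. Of these 5, 3 later rose and 2 later fell. The gene at line 3339 was among those that fell early, with a log2 change of -1.61 ± 0.35 over 19 days (adjusted p 0.00267). The rising gene at line 12652 had an early slope of -1.63 ± 0.69, which was not called (adjusted p 0.126).

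Relative to the mean of days 34 to 69 at the same temperature, the median of the 188 falling genes at constant 7 °C stood at 1.43 at day 7, 0.71 at day 26 and 0.35 at day 34. It was -0.39 at day 55, where the median of all genes tested was -0.14, and -0.27 at day 69. In the fluctuating arm after 7 °C it went from 0.48 at day 34 to -0.54 at day 69. The median of the 84 rising genes at constant 7 °C stood at -0.92 at day 7, -0.47 at day 26 and 0.26 at day 69, and in the fluctuating arm it went from -0.39 to 0.43. These are log2 CPM values from libraries with at least 1000000 counts, and constant 11 °C at day 7 and constant 4 °C at day 41 have 1 such library each.

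**Figure D5:**
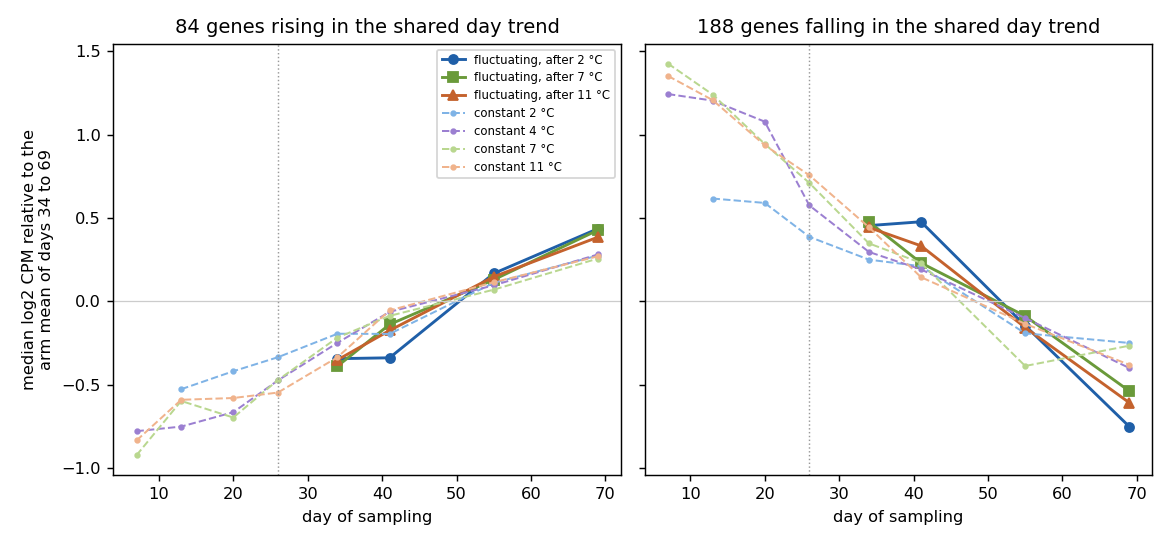
Median log2 CPM of the 84 rising and the 188 falling genes by day of sampling in each arm, relative to the mean of that arm over days 34 to 69, with a dotted line at day 26, when buds were moved. The fluctuating arms cross 0 between days 41 and 55 in both panels, and the constant arms between 2 and 11 °C lie on the same side before day 26 as the fluctuating arms at day 34.

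Read the other way, genes called at constant temperature from day 34 had their largest medians in the fluctuating arm after 2 °C. Only genes that were also tested under fluctuation enter here. The 227 such genes that rose at constant 2, 7 and 11 °C from day 34 had median log2 changes of 0.67, 0.23 and 0.05 in the fluctuating arms after 2, 7 and 11 °C. The 223 that fell had -1.13, -0.12 and -0.32. Over the 3 arms 206 of 227 (90.7%) and 187 of 223 (83.9%) had the same sign, where 53.4% of all genes tested in both had a positive slope under fluctuation. The 489 genes tested in both that rose in the early weeks had medians of -0.18, 0.50 and 0.27 after 2, 7 and 11 °C. The arm after 2 °C was thus the lowest for these, whereas the 406 tested in both that fell early had -0.30, -0.45 and -0.42. These medians are descriptions, and differences between arms in them were not tested.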

How the data were processed

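Per the labels' protocols, grapevine buds were profiled by QuantSeq 3′ mRNA sequencing (read length 85). The authors deposited raw read counts per gene for 42413 genes without identifiers. FastQC, STAR and DESeq2 are named in the submitters' processing notes, and aligner settings and genome build are not given in the sources used here. From these counts, trends were fitted in R 4.3.3 with edgeR 4.0.16 (TMM scaling, filterByExpr, quasi-likelihood F test, Benjamini-Hochberg adjustment over all genes tested, called at an adjusted p under 0.05). Day was a number scaled so that a coefficient is the log2 change over 35 days (19 days for days 7 to 26). DESeq2 1.42.0 was the other tool. CPM are counts per 1000000 of the library total. Depth of 36026 to 7138863 counts per library sets the precision, and 3 counts were taken as the floor, which covers counting error only. The scripts were tested on simulated data.

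The libraries, genes, tests and lists were chosen with earlier results of these data known. Named genes were the 2 largest rises and 2 largest falls among called genes with at least 10 CPM and the same direction in each arm. Alternatives were DESeq2, RLE scaling, no filter, deeper libraries, omitted replicates, arms, days and libraries, a replicate block, plate row and the axis of variation within groups. Same-numbered libraries had a mean correlation of deviations of -0.0154 and did not pair, so the main fits have no block.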

Additional observations from a re-analysis of the deposited data

Results flagged for a closer look

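One gene was picked out because its change with day differed between arms by a test of the difference itself. The 3 slopes were unequal at an adjusted p of 0.0253 (edgeR's quasi-likelihood test over 11734 genes), with log2 changes over 35 days of -3.16, -0.50 and -0.25 after 2, 7 and 11 °C. The level after 2 °C was 50.8 ± 19.9 CPM (SD, n = 3) at day 34 and 4.68 ± 1.41 at day 69. The test of all 3 slopes called no gene under 5 of 11 alternatives (RLE scaling, no filter on low counts and without replicate 1, 2 or 3), and the call for the arms after 2 and 11 °C was lost under 4 of 11. Each group has 3 libraries, so single libraries standing apart within a group were not tested.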

How the results depend on the processing

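Values here are the share of the tested genes that were called. Whether a result moved by over 1.5 times was judged on the number of genes called, not on the share, and 42.01% of 269 such numbers under alternatives did. The named genes kept their direction under every alternative run. Of 53 alternatives, the gene at line 2793 lost its call under 4 (highest adjusted p in edgeR 0.604), that at line 12652 under 1 (0.488), that at line 38662 under 1 (0.226) and that at line 3339 under none. All 3 lost it without day 69, and line 2793 also without the arm after 11 °C and without replicate 1 or 3. The cause of these changes was not tested.

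DESeq2 gave 5.73% for the shared trend, 3.74% for any change among days, 0.233% for the step from day 41 to 55, 0.152% for the step from day 55 to 69, 0.107% for the middle days and 3.30% for day 69 against 34. It also gave 4.07% for day 69 against earlier days, 0.591% for day 55 against 34, 0.119% for unequal slopes, 0.0852% for 2 against 11 °C, 0.153% for 2 against 7 °C and 0.545% for unequal day patterns. To these it added 7.58% for the arm after 2 °C, 0.131% for the arm after 7 °C, 0.693% for the arm after 11 °C, 0.0499% for fluctuating against constant 2, 7 and 11 °C, 0.00837% for fluctuating against constant 4 °C and 7.78% for constant 2, 7 and 11 °C late. It further gave 2.09% for constant 4 °C. Without a filter on low counts more genes were tested, so the shared trend stood at 1.02% and day 69 against 34 at 0.773% with numbers called within 1.5 times. The other shares were 1.53% for any change among days, 0.0163% for the step from day 34 to 41, 0.468% for the step from day 41 to 55, 0.326% for the step from day 55 to 69, 0.00407% for the middle days and 0.415% for day 55 against 34. It also gave 0% for unequal slopes, 0% for 2 against 11 °C, 2.58% for unequal day patterns, 2.01% for the arm after 2 °C, 0.0137% for the arm after 7 °C and 0.0231% for the arm after 11 °C. To these it added 0.0651% for fluctuating against constant 2, 7 and 11 °C, 2.91% for constant 2, 7 and 11 °C late and 0.0524% for constant 4 °C.

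In libraries of at least 1000000 counts the shares were 4.79% for the shared trend, 1.76% for any change among days, 2.65% for day 69 against 34, 3.11% for day 69 against earlier days, 0.00868% for day 55 against 34 and 0.0169% for unequal slopes. It also gave 0.0169% for 2 against 11 °C, 6.01% for the arm after 2 °C, 0.0754% for the arm after 11 °C and 0% for constant 4 °C. RLE scaling gave 0% for unequal slopes, 0.0170% for 2 against 11 °C, 0.0562% for the arm after 11 °C and 0.0757% for constant 4 °C. Plate row as a covariate gave 0% for day 55 against 34 and 0.0447% for the arm after 11 °C.

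The axis of variation within groups over 36 libraries gave 4.10% for unequal day patterns, 2.67% for the arm after 2 °C and 0.0674% for the arm after 11 °C. That of the 33 deeper libraries, chosen after seeing the data, gave 10.4% for the shared trend, 7.40% for any change among days, 0.0592% for the step from day 41 to 55, 0.567% for the step from day 55 to 69, 0.0169% for the middle days and 6.58% for day 69 against 34. It also gave 9.08% for day 69 against earlier days, 1.44% for day 55 against 34, 11.6% for unequal slopes, 7.42% for 2 against 11 °C, 14.04% for 2 against 7 °C and 9.84% for unequal day patterns. To these it added 22.7% for the arm after 2 °C, 2.51% for the arm after 7 °C and 1.46% for the arm after 11 °C.

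For the shared trend, 2.54% in the full fit, the share was 0.603%, 1.33% and 1.06% without the arm after 2, 7 or 11 °C, 1.45% without day 34 and 0.00918% without day 69. Leaving out each of the 36 libraries in turn, also chosen after seeing the data, gave 1.95% to 3.33%. Omitting a replicate number gave 0.289% to 1.52% for the shared trend, 0.114% to 0.172% for any change among days, 0.131% to 0.556% for day 69 against 34 and 0.122% to 0.570% for day 69 against earlier days. It gave 0% to 0.0161% for unequal day patterns, 0% to 11.5% for the arm after 2 °C, 0.1004% to 1.52% for constant 2, 7 and 11 °C late, 0.770% to 13.9% for constant 2, 7 and 11 °C early, and 0% for the other results.

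Replicate numbers did not pair the samples, since 11 of 36 libraries correlated best with their own number. With the number as a replicate block the shared trend had 261 genes. The block gave 3.14% for the arm after 2 °C, 0% for the arm after 11 °C and 0% for constant 4 °C. It moved no other count by over 1.5 times. Depth limits low genes most, as 3 counts correspond to 83.3 CPM in the shallowest library.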
